A study of Mus musculus with 6 samples.

Results

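The metallothioneins and the machinery that moves zinc across membranes were examined in Tregs from B16.F10 melanomas with and without the glucocorticoid receptor. The group held 10 genes picked by name (*Mt1*, *Mt2*, *Mtf1*, *Slc30a1*, *Slc30a5*, *Slc30a7*, *Slc39a1*, *Slc39a6*, *Slc39a7* and *Slc39a10*), and all 10 were among the 12153 genes of the normalized expression table. Tumors were taken on day 15 after inoculation, and RNA-Seq was done on sorted tumor-infiltrating Tregs as 3 control and 3 Nr3c1-Foxp3Cre libraries. All 6 came from mice with the floxed *Nr3c1* allele, which encodes the glucocorticoid receptor. Control mice had that allele alone per the labels, and Nr3c1-Foxp3Cre mice also carried YFP/Cre driven by the *Foxp3* promoter, so that recombination was directed to Foxp3-expressing cells. The labels describe Tregs as CD4+CD25+ cells, whereas the methods of the study describe a gate on Foxp3-YFP, and no label gives control mice a YFP allele. Ages, the number of mice behind a library and whether libraries came from separate mice were not given in the sources used here, so p-values measure the spread between these libraries.

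Metallothioneins are small cytosolic proteins whose cysteines bind zinc and other metals, and *Mt1* and *Mt2* lie next to each other in the mouse genome. Free zinc is sensed by MTF-1, the product of *Mtf1*, which binds metal response elements and activates *Mt1*, *Mt2* and the exporter gene *Slc30a1* and is known to repress *Slc39a10*. Glucocorticoids are a classical inducer of both metallothionein genes in liver and cultured cells. Proteins of the Slc30 (ZnT) family carry zinc out of the cytosol, across the plasma membrane or into organelles, and those of the Slc39 (ZIP) family carry it into the cytosol.

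Values are log2 CPM, read counts scaled to the total of a library, after quantile normalization by the authors. A log2 fold change is the Nr3c1-Foxp3Cre mean minus the control mean, with its standard error (SE) and 95% confidence interval from limma fitted to all 12153 genes. A gene was called when its adjusted p was under 0.05 (Benjamini-Hochberg over all genes). The fit includes a trend of the variance with the level. Read depth is unknown because no counts were given, and the number of libraries limits the precision.

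None of the 10 genes rose or fell by this test. Of the 10, 0 were called, against 7 of 12153 genes, or 0.0576%, over the whole table, and 0 had an unadjusted limma p under 0.05, against 396 genes or 3.26%. Groups did not overlap for 0 of the 10, against 901 genes or 7.41%. The fitted log2 fold change was above 0 for 5 genes and below 0 for 5, with a median of -0.0016 against -0.0014 over all genes. The median size of the change was 0.11 log2 units, and the same median over all genes was 0.11. The largest, of *Slc30a1*, was 0.20. Adjusted p was 1.0 for each of the 10 genes by limma. With 3 libraries against 3, an exact two-sided permutation test of a single gene cannot give a p below 0.1.

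**Figure D1:**
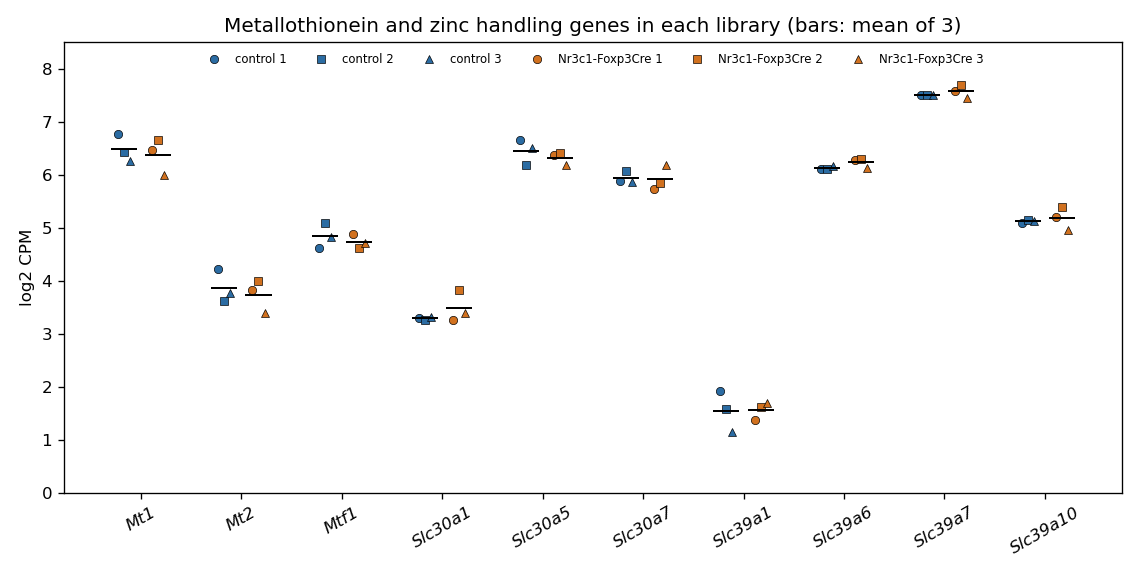
Level of each of the 10 genes in log2 CPM (vertical axis) in the 3 control libraries (blue) and the 3 Nr3c1-Foxp3Cre libraries (orange), with marker shapes for the replicate number and black bars for group means. The groups overlapped for every gene, and the plotted values ran from 1.15 for *Slc39a1* in control 3 to 7.70 for *Slc39a7* in Nr3c1-Foxp3Cre 2.

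The plot of the 10 genes by library puts the spread between replicates beside the difference between genotypes. Receptor deletion could be read in the same libraries. *Nr3c1* was at 7.15, 7.59 and 6.88 in control and at 6.14, 5.45 and 5.90 in Nr3c1-Foxp3Cre libraries. The groups did not overlap, and the log2 fold change was -1.38 (SE 0.21, adjusted p = 0.12 by limma). *Tsc22d3*, which encodes the glucocorticoid-induced protein GILZ, was at 7.78, 8.31 and 7.69 in control and at 6.45, 6.28 and 6.35 in Nr3c1-Foxp3Cre libraries, with a log2 fold change of -1.56 (SE 0.16, adjusted p = 0.034 by limma). Both genes were lower in every Nr3c1-Foxp3Cre library than in any control library. Values are for whole genes, so that *Nr3c1* transcript outside the floxed part is counted as well. The call of *Tsc22d3* was lost without control 3 or without any 1 of Nr3c1-Foxp3Cre 1 to 3 (adjusted p = 0.071, 0.064, 0.14 and 0.154 by limma), without the trend term (0.221) and with replicate numbers as blocks (0.137), while its log2 fold change stayed between -1.68 and -1.37.

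Treg genes were read in the sorted cells to check the labelled cell type. All 7 Treg markers (*Foxp3*, *Il2ra*, *Ctla4*, *Ikzf2*, *Cd4*, *Cd3e* and *Tnfrsf18*) were in the table, with a summed level of 3147 to 4407 CPM in control and 3204 to 3818 CPM in Nr3c1-Foxp3Cre libraries. *Tnfrsf18* was the highest of them, with geometric means of 1387 CPM in control and 1386 CPM in Nr3c1-Foxp3Cre libraries. *Foxp3* was the lowest, with 15.0 CPM and 15.6 CPM. Transcripts of other cells were present too. The 5 melanoma genes *Pmel*, *Tyrp1*, *Dct*, *Mlana* and *Tyr* summed to 3373 to 9051 CPM in control and 3766 to 9468 CPM in Nr3c1-Foxp3Cre libraries. In every library but control 2 the melanoma sum was above the Treg sum. The 7 macrophage genes summed to 332.8 to 486.9 CPM and 243.0 to 478.4 CPM, also with overlapping groups, but all 7 had log2 fold changes below 0 (median -0.41). The mean of their log2 CPM was 4.81, 4.26 and 4.69 in control and 3.83, 4.15 and 3.99 in Nr3c1-Foxp3Cre libraries, without overlap. That lack of overlap rested on *Mpeg1*, at -3.96 log2 CPM in Nr3c1-Foxp3Cre 2 and between -0.054 and 0.64 in the other libraries. For each of the other macrophage genes, Nr3c1-Foxp3Cre 2 lay above control 2. The 4 fibroblast collagen and decorin genes summed to 184.9 to 457.0 CPM in control and 75.0 to 167.1 CPM in Nr3c1-Foxp3Cre libraries, without overlap. Gene by gene, the groups did not overlap for *Col1a1* and *Col1a2* but overlapped for *Col3a1* and *Dcn*. Of the dendritic cell markers 3 of 4 were tested and summed to overlapping levels, and of the CD8 T cell markers *Cd8b1* was tested, at 7.62 to 15.6 CPM in control and 10.2 to 12.8 CPM in Nr3c1-Foxp3Cre libraries. Of the 2 endothelial markers *Cdh5* was not among the genes tested. The other, *Pecam1*, was at 44.5 to 51.2 CPM in control and 53.5 to 62.6 CPM in Nr3c1-Foxp3Cre libraries, without overlap. A single gene cannot show whether endothelial transcripts differed. The part of these cells in the levels of the 10 genes was not tested. None of the defining markers listed for NK cells, B cells and neutrophils was among the genes tested.

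*Mt1* and *Mt2* are the metal stores of the group. *Mt1* (ENSMUSG00000031765.8, chr8:94179082-94180327, + strand, mm10) and *Mt2* (ENSMUSG00000031762.7, chr8:94172664-94173568, + strand, mm10) were separated by 5513 bp. Their proteins are shown as spliced coding sequences because the cysteine codons carry the metal-binding function and because likeness between the genes bears on how reads were divided between them. Each was read from the GENCODE M21 transcript, joined from 3 exons between chr8:94179311-94180193 for *Mt1* and chr8:94172848-94173427 for *Mt2*, with cysteine codons in capitals:
Mt1: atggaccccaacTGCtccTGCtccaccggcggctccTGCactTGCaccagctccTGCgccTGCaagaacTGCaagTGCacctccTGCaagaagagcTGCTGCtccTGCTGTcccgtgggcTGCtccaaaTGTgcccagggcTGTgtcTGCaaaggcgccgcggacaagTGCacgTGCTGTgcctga
Mt2: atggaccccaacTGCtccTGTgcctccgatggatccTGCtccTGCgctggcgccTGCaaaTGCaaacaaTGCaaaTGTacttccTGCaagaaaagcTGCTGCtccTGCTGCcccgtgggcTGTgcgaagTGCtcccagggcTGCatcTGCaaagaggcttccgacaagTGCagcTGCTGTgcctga
Both encoded 61 residues, of which 20, or 32.8%, were cysteines, 16 with the codon TGC and 4 with TGT. All 20 cysteines stood at the same positions in the 2 proteins. The proteins shared 46 of 61 residues (75.4%) and the coding sequences 148 of 186 bases (79.6%). The longest run of bases that the whole transcripts shared was 20. RSEM, which the authors used, divides reads that fit more than 1 transcript by estimation, and how many reads that concerned was not tested.

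*Mt1* was at 6.78, 6.43 and 6.25 log2 CPM in control libraries 1 to 3 and at 6.47, 6.66 and 5.99 in Nr3c1-Foxp3Cre libraries 1 to 3. Control 1 was the highest library and Nr3c1-Foxp3Cre 3 the lowest, and the groups overlapped. The geometric means were 89.8 CPM and 83.0 CPM. The log2 fold change was -0.11 (SE 0.19, 95% interval -0.54 to 0.31), so that the interval of the ratio ran from 0.688 to 1.24. *Mt2* was at 4.22, 3.63 and 3.77 log2 CPM in control and at 3.82, 4.005 and 3.40 in Nr3c1-Foxp3Cre libraries. It had the same highest and lowest libraries as *Mt1*. Its geometric means were 14.6 CPM and 13.4 CPM, and its log2 fold change was -0.13 (SE 0.24, 95% interval -0.67 to 0.41). The intervals of both genes held 0, and neither reached the -1.56 of *Tsc22d3*. Leaving out single libraries turned the sign of both: without control 1 the log2 fold changes were 0.03 for *Mt1* and 0.04 for *Mt2*, and without Nr3c1-Foxp3Cre 3 they were 0.08 and 0.04.

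The ratio of *Mt1* to *Mt2* varied less than either gene. Within a library the log2 ratio was 2.56, 2.80 and 2.49 in control and 2.65, 2.66 and 2.60 in Nr3c1-Foxp3Cre libraries. Its mean was 2.63 with an SD of 0.11 over 6 libraries, and the group means differed by 0.02 (exact permutation p = 0.9). Per length, *Mt1* was 2.91-fold above *Mt2* with merged exons, 4.38-fold with the median transcript and 5.74-fold with the transcripts shown. The ratio of *Mt1* to *Slc30a1*, another known MTF-1 target of the group, had an SD of 0.31 over the 6 libraries, a difference in spread that was not tested. Over the 6 libraries, *Mt1* and *Mt2* had a Pearson r of 0.931 (exact permutation p = 0.0083, adjusted over 7 relations 0.058) and a Spearman rho of 0.943 (exact permutation p = 0.017, adjusted 0.117). The r was 0.927 within groups and 0.688 without control 1 and Nr3c1-Foxp3Cre 3, the libraries farthest from the median. Among 9282 other genes with a mean of at least 3 log2 CPM, 29, or 0.312%, followed *Mt1* with a higher r than *Mt2* did. For *Mt2* the number was 111, or 1.2%. The genes most like *Mt1* were B230219D22Rik (r = 0.990), 2310061I04Rik (r = 0.985) and *Ctbp2* (r = 0.982), a transcriptional corepressor. Those most like *Mt2* were *Gas7* (r = 0.997), *Ssbp2* (r = 0.994) and *Cmas* (r = 0.993). These 6 r values are descriptions over 6 libraries that share the depth, the sort and the normalization of each library.

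The metallothionein levels were also set against melanoma transcripts. The mean of the 5 melanoma genes was 10.03, 8.58 and 9.65 log2 CPM in control and 9.43, 10.05 and 8.71 in Nr3c1-Foxp3Cre libraries, high in control 1 and Nr3c1-Foxp3Cre 2 and low in control 2 and Nr3c1-Foxp3Cre 3. *Mt2* followed it with a Pearson r of 0.886 (exact permutation p = 0.022, adjusted 0.078) and a Spearman rho of 0.829 (exact permutation p = 0.058, adjusted 0.204). That r was 0.909 within groups and 0.809 without control 2 and Nr3c1-Foxp3Cre 3. *Mt1* had an r of 0.702 (exact permutation p = 0.144, adjusted 0.337) and a rho of 0.657 (exact permutation p = 0.175, adjusted 0.408). Its r was 0.715 within groups and 0.739 without the same 2 libraries. None of the 7 relations passed 0.05 after adjustment. The share of all genes that follow the melanoma mean as closely was not computed. Macrophage markers gave an r of 0.353 with *Mt1* and 0.526 with *Mt2* (exact permutation p = 0.50 and 0.286, adjusted 0.50 and 0.467), and fibroblast markers 0.363 and 0.488 (exact permutation p = 0.497 and 0.333, adjusted 0.50 and 0.467). The macrophage mean includes *Mpeg1*, which was at -3.96 log2 CPM in Nr3c1-Foxp3Cre 2, and its r without that gene was not computed. With the melanoma mean as a covariate, an alternative added after the data were seen, the log2 fold change between genotypes was -0.11 (SE 0.14) for *Mt1* and -0.12 (SE 0.18) for *Mt2*. The part of tumor cell RNA in the metallothionein levels was not tested. In bulk RNA, fewer cells that express a gene and less of its RNA per cell cannot be told apart.

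**Figure D2:**
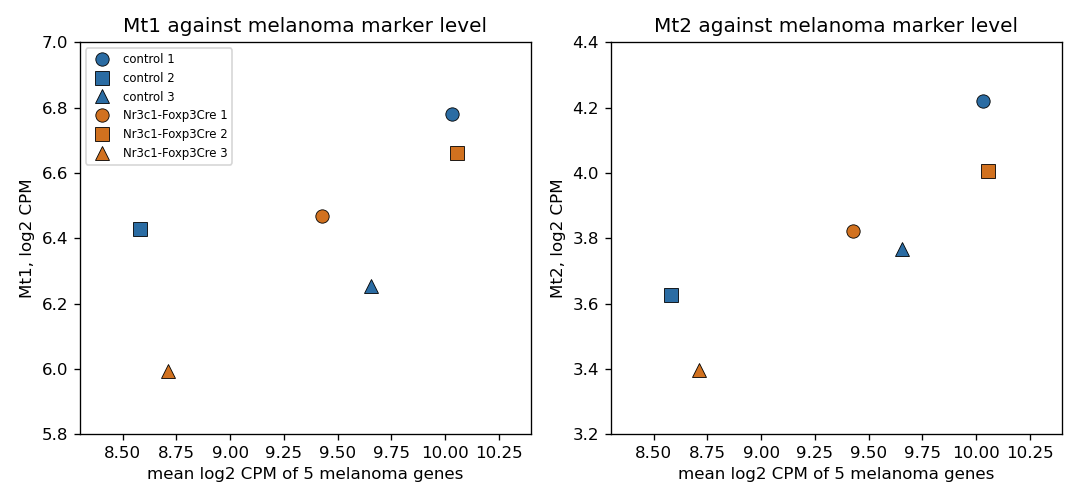
*Mt1* (left) and *Mt2* (right) in log2 CPM against the mean log2 CPM of 5 melanoma genes, with 1 point for each library (blue, control; orange, Nr3c1-Foxp3Cre) and axes that do not start at 0. Control 1 and Nr3c1-Foxp3Cre 2 are highest on both axes in both panels, and the r over the 6 libraries was 0.702 for *Mt1* and 0.886 for *Mt2*.

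The metallothioneins were set against *Tsc22d3* within each library as a description, since *Tsc22d3* itself fell and any gene of even level would show a higher ratio to it. The log2 ratio of *Mt1* to *Tsc22d3* was -1.0, -1.88 and -1.44 in control and 0.014, 0.38 and -0.36 in Nr3c1-Foxp3Cre libraries, a difference of 1.45. *Mt2* over *Tsc22d3* ran from -4.69 to -3.56 in control and from -2.96 to -2.28 in Nr3c1-Foxp3Cre libraries, a difference of 1.43. Each difference is that between the log2 fold changes of the 2 genes. The plot of the ratios shows the even *Mt1* to *Mt2* ratio beside the ratios to *Tsc22d3*.

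**Figure D3:**
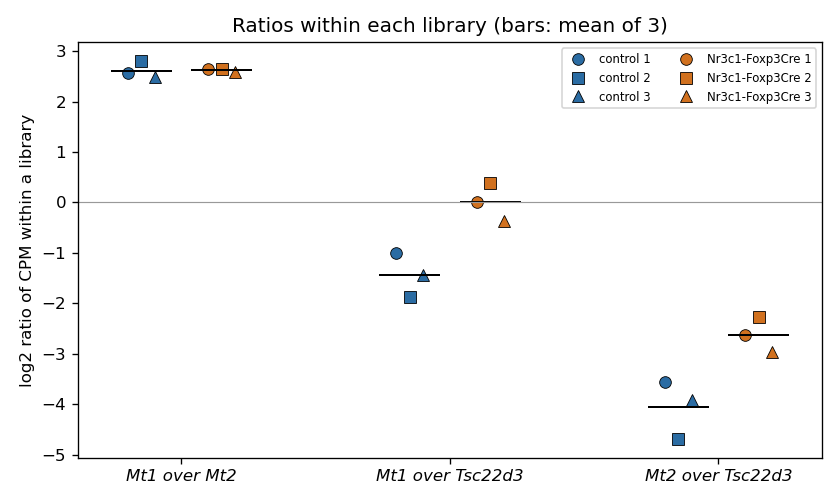
Log2 ratio of the CPM of 2 genes within each library (vertical axis) for *Mt1* over *Mt2*, *Mt1* over *Tsc22d3* and *Mt2* over *Tsc22d3*, with points for libraries and black bars for means of 3. The group means differed by 0.02 in the first ratio and by 1.45 and 1.43 in the others, which carry the lower *Tsc22d3* of the Nr3c1-Foxp3Cre libraries.

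Sequence before the start of 3 genes that MTF-1 activates is shown because MTF-1 is known to act through metal response elements. Whether MTF-1 had a part in the shared pattern of *Mt1* and *Mt2* was not tested. The windows came from RefSeq (GRCm38.p6, the assembly of mm10) and reach up to 250 bases before the RefSeq start. They were cut where the GENCODE gene begins first, and span chr8:94178839-94179081 for *Mt1*, chr8:94172368-94172617 for *Mt2* and chr1:191906531-191906766 for *Slc30a1*, all on the + strand. Capitals mark the core of the metal response element, TGCACNC or TGCGCNC on either strand, and in *Mt1* also the match to the glucocorticoid response element letters GNACANNNTGTNC:
Mt1: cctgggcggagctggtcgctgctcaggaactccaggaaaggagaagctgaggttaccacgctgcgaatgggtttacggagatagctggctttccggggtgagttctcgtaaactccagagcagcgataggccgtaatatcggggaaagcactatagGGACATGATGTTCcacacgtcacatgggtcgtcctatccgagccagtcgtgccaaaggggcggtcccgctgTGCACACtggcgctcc
Mt2: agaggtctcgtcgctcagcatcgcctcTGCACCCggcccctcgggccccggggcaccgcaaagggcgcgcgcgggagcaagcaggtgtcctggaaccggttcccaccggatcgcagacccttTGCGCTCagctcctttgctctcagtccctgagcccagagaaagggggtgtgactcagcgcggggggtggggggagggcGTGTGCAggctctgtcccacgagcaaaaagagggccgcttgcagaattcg
Slc30a1: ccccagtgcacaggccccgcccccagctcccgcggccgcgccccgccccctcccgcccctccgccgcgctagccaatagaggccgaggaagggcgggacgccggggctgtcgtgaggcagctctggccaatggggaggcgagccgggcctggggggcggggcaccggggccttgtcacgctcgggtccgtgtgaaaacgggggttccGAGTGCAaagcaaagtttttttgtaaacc
Within these windows the core letters occurred 3 times for *Mt2*, once for *Mt1* and once for *Slc30a1*. Of 32851 RefSeq windows, 21.4% held at least 1 match and 1.26% held at least 3. With the 50 bases after the RefSeq start included, the matches were 4 for *Mt2*, 3 for *Mt1* and 2 for *Slc30a1*, against 0.517%, 1.97% and 7.11% of windows with at least as many. *Slc30a5* had 1 match in its 250 bases, and *Mtf1*, *Slc30a7*, *Slc39a1*, *Slc39a7* and *Slc39a10* had 0. *Slc39a6* was not among the windows. The glucocorticoid letters, found in 0.387% of windows, matched in *Mt1* as GGACATGATGTTC, 94 bases before the RefSeq start, and in none of the other windows of the group. Sequence farther upstream was not searched, so no match in a window does not mean that a gene, *Mt2* included, lacks such an element. In the transcripts shown above, the coding sequence began at base 230 for *Mt1* and base 185 for *Mt2*. Most of the sequence between the annotated start and the coding sequence was therefore not searched. The counts depend on where the windows lie and are not totals of the elements of a gene. A match of letters is a description, and binding was not measured here.

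*Mtf1* (ENSMUSG00000028890.13, chr4:124802104-124849800) encodes the zinc sensor. It was at 4.63, 5.09 and 4.83 log2 CPM in control and at 4.88, 4.62 and 4.72 in Nr3c1-Foxp3Cre libraries. Control 2 was highest, the other 5 libraries lay between 4.62 and 4.88, and the log2 fold change was -0.11 (SE 0.17, 95% interval -0.48 to 0.26). *Mtf1* overlaps 1110065P20Rik on the other strand, which was in the table as well, and whether counting used strand was not given in the sources used here.

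Of the exporters, *Slc30a5* and *Slc30a7* encode ZnT5 and ZnT7, which load zinc into the secretory pathway. *Slc30a5* (chr13:100802648-100833427) was at 6.65, 6.18 and 6.51 log2 CPM in control and at 6.37, 6.41 and 6.19 in Nr3c1-Foxp3Cre libraries, with a log2 fold change of -0.13 (SE 0.14, 95% interval -0.44 to 0.18). Control 2 lay below all the Nr3c1-Foxp3Cre libraries, and the other control libraries lay above them. *Slc30a7* (chr3:115938973-116007406) was at 5.88, 6.08 and 5.88 in control and at 5.73, 5.85 and 6.20 in Nr3c1-Foxp3Cre libraries. Its lowest and its highest libraries were both Nr3c1-Foxp3Cre, and the log2 fold change was -0.02 (SE 0.14, 95% interval -0.34 to 0.30). *Slc30a1* (chr1:191906767-191913247) encodes ZnT1, which exports zinc across the plasma membrane. It was at 3.30, 3.27 and 3.31 log2 CPM in control and at 3.26, 3.83 and 3.39 in Nr3c1-Foxp3Cre libraries. The control libraries lay close together, Nr3c1-Foxp3Cre 2 and 3 stood above them and Nr3c1-Foxp3Cre 1 was lowest. The log2 fold change was 0.20 (SE 0.22, 95% interval -0.30 to 0.70), and without Nr3c1-Foxp3Cre 2 it was 0.03.

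Among the importers, *Slc39a7* (chr17:34028269-34031682) encodes ZIP7, which releases zinc from the endoplasmic reticulum into the cytosol. It was at 7.5 in each control library and at 7.59, 7.70 and 7.45 in Nr3c1-Foxp3Cre libraries, with a log2 fold change of 0.08 (SE 0.10, 95% interval -0.14 to 0.30). Nr3c1-Foxp3Cre 3 lay below the control libraries and the other Nr3c1-Foxp3Cre libraries above them. Quantile normalization gives all libraries the same set of values, so that equal ranks carry equal values. Gm20427 overlaps it on the same strand and was also in the table, so that reads of the 2 could be divided either way. *Slc39a6* (chr18:24579881-24603817) and *Slc39a10* (chr1:46807544-46892852) encode ZIP6 and ZIP10, related importers of the plasma membrane. *Slc39a6* was at 6.10, 6.11 and 6.16 log2 CPM in control and at 6.28, 6.30 and 6.13 in Nr3c1-Foxp3Cre libraries. Only Nr3c1-Foxp3Cre 3 lay within the control values, and the log2 fold change was 0.11 (SE 0.10, 95% interval -0.12 to 0.35). *Slc39a6* overlaps *Elp2* on the other strand, which was in the table too. *Slc39a10* was at 5.09, 5.16 and 5.14 in control and at 5.20, 5.39 and 4.96 in Nr3c1-Foxp3Cre libraries, with a log2 fold change of 0.05 (SE 0.15, 95% interval -0.28 to 0.38). Nr3c1-Foxp3Cre 3 was its lowest library and the other Nr3c1-Foxp3Cre libraries its highest. *Slc39a1* (chr3:90248172-90253612), which encodes the plasma membrane importer ZIP1, had the lowest level of the 10 genes per kilobase. It was at 1.92, 1.59 and 1.15 log2 CPM in control and at 1.37, 1.63 and 1.70 in Nr3c1-Foxp3Cre libraries. Its log2 fold change of 0.02 had the widest interval of the 10, from -0.75 to 0.78.

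One library set the overlap of several transporter genes. Without Nr3c1-Foxp3Cre 3, 4 of the 10 genes had groups that did not overlap, *Slc39a6*, *Slc39a7* and *Slc39a10* higher and *Slc30a7* lower in Nr3c1-Foxp3Cre libraries. With the same library left out, 17.9% of all genes had groups that did not overlap, and limma called 0 of the 10. Leaving out control 2, control 3 or Nr3c1-Foxp3Cre 1 left 1 such gene each, *Slc30a5*, *Slc39a6* and *Slc30a1*, against 20%, 13.2% and 16.3% of all genes. Nr3c1-Foxp3Cre 3 had the lowest melanoma sum of its group, at 3766 CPM, and control 2 had a lower one, at 3373 CPM. A link between that sum and the overlap was not tested.

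Levels of different genes were compared per kilobase of merged exons. In log2 CPM per kb over 6 libraries, *Slc39a7* (6.17, SD 0.09) and *Mt1* (6.11, SD 0.28) were highest and differed by less than their spread. *Mt2* (4.57, SD 0.29), *Slc39a6* (4.15, SD 0.09) and *Slc30a5* (3.52, SD 0.18) followed, each step larger than the SD. *Slc39a10* (2.55, SD 0.14) and *Slc30a7* (2.46, SD 0.17) differed by less than their spread. *Mtf1* (1.64, SD 0.18), *Slc30a1* (1.004, SD 0.22) and *Slc39a1* (0.32, SD 0.27) came last. On this scale *Mt1* stood 34.5-fold above *Slc30a1*. With the median transcript length of each gene in place of its merged exons, the first 2 and the last 2 kept their places, and *Mt2* moved from place 3 to 6 and *Mtf1* from 8 to 4. The plot of levels per length shows both scales.

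**Figure D4:**
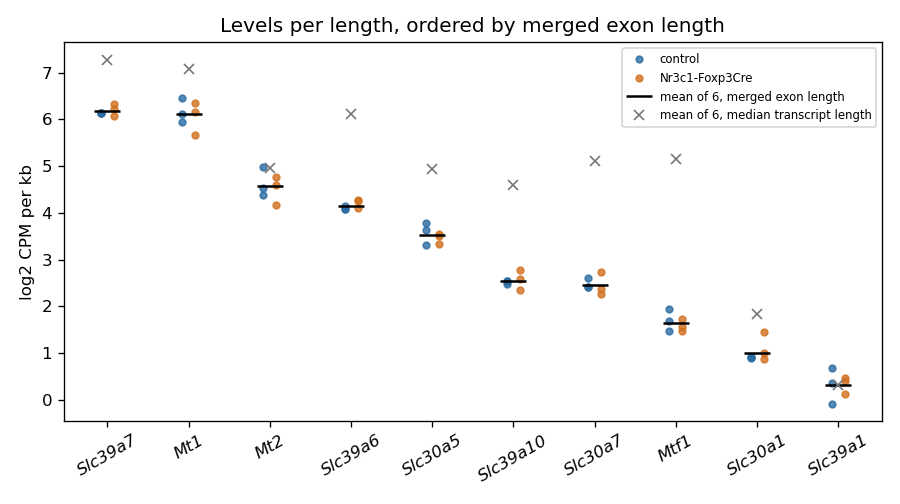
Level of the 10 genes in log2 CPM per kb (vertical axis) in control (blue) and Nr3c1-Foxp3Cre (orange) libraries, with black bars for the mean of 6 by merged exon length and grey crosses for the mean by median transcript length. *Slc39a7* and *Mt1* are at the top on both scales, and *Slc30a1* and *Slc39a1* at the bottom.

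The wider zinc list held 20 further genes, of which 8 were not among the genes tested (*Mt4*, *Slc30a2*, *Slc30a3*, *Slc30a8*, *Slc30a10*, *Slc39a2*, *Slc39a5* and *Slc39a12*). Of the 12 tested, 6 had a log2 fold change above 0 and 6 below 0, with a median of 0.01, and limma called 0 against the 0.0576% of all genes. One of the 12 had an unadjusted p under 0.05 and groups that did not overlap, against 3.26% and 7.41% of all genes, so that the count was near that background. This was *Tmem163* (chr1:127486546-127679548), which encodes a zinc transporter described in neurons. It was at 1.98, 2.47 and 2.12 log2 CPM in control and at 0.031, -0.34 and 1.84 in Nr3c1-Foxp3Cre libraries. It was lower in all 3 Nr3c1-Foxp3Cre libraries, although Nr3c1-Foxp3Cre 3 lay near the control values. Its log2 fold change was -1.68 (SE 0.55, 95% interval -2.92 to -0.45), with an unadjusted p of 0.013 and an adjusted p of 1.0 by limma. The gene overlaps *Mgat5* on the other strand, which was in the table. Over 16 alternatives its log2 fold change ran from -2.35 to -1.13 and its adjusted p from 0.257 to 1.0 by limma.

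The other 11 genes of that list had no unadjusted p under 0.05. *Slc39a4*, a zinc importer best known from the intestine, was at 6.54, 7.07 and 6.38 log2 CPM in control and 6.42, 6.31 and 6.62 in Nr3c1-Foxp3Cre libraries. Control 2 was its highest library, and its log2 fold change was -0.21 (SE 0.17, 95% interval -0.61 to 0.18). *Slc39a3*, a plasma membrane importer, had a log2 fold change of 0.21 (SE 0.17, 95% interval -0.17 to 0.59). *Slc30a6*, whose product pairs with that of *Slc30a5*, ran from 5.12 to 5.30 in control and from 5.05 to 5.35 in Nr3c1-Foxp3Cre libraries, with a log2 fold change of 0.02 (SE 0.14). *Slc39a14*, an importer of zinc and iron, ran from 4.74 to 5.23 and from 4.69 to 5.33, with a log2 fold change of -0.12 (SE 0.21). The metallothionein *Mt3* had low values, at 0.18 to 0.61 in control and -0.56 to 0.32 in Nr3c1-Foxp3Cre libraries, with a log2 fold change of -0.37 (SE 0.45).

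**Figure D5:**
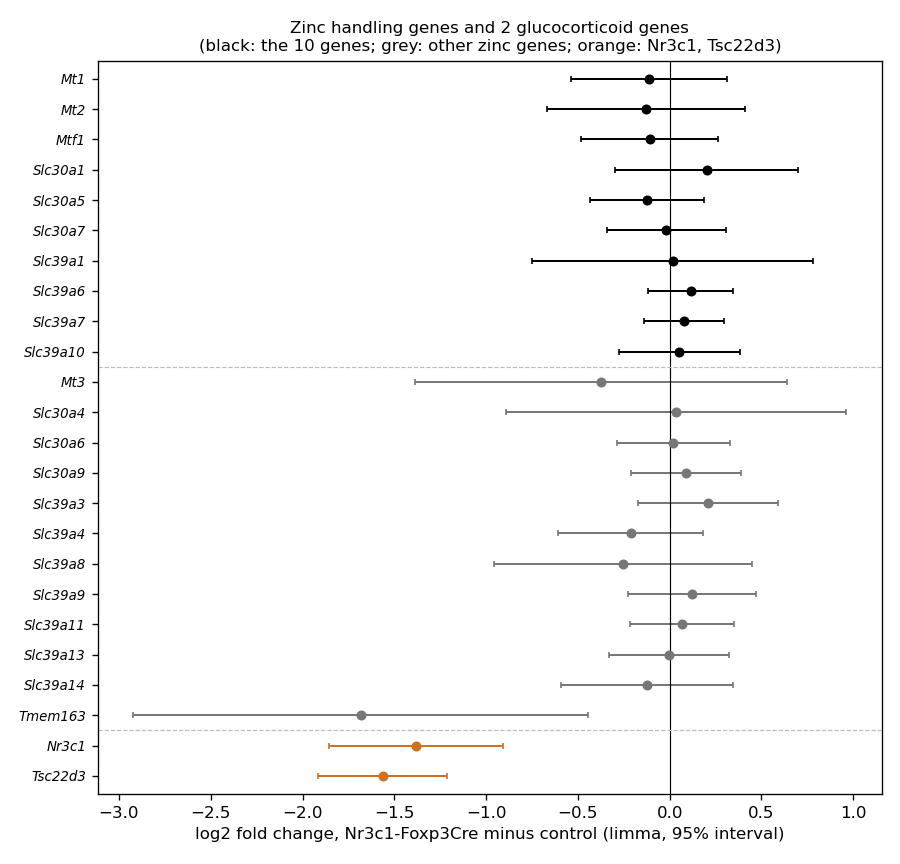
Log2 fold change of Nr3c1-Foxp3Cre minus control (horizontal axis) with its 95% interval from limma for the 10 genes (black), 12 other zinc genes (grey) and *Nr3c1* and *Tsc22d3* (orange). All 10 black intervals cross 0, with estimates from -0.13 to 0.20, while *Tmem163*, *Nr3c1* and *Tsc22d3* lie at -1.68, -1.38 and -1.56.

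The plot of fold changes sets the intervals of the zinc genes beside those of *Nr3c1* and *Tsc22d3*. For the 10 genes the interval bounds lay between -0.75 and 0.78. A change as large as that of *Tsc22d3* lay outside the interval of each of them. Changes within these intervals could not be told from 0 with 3 libraries a group.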

How the data were processed

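RNA-Seq of tumor-infiltrating Tregs was analysed in 3 control and 3 Nr3c1-Foxp3Cre libraries, grouped and numbered by the sample titles. Per the methods of the study, adapters and poor bases were cut off with Cutadapt, STAR placed the reads on mm10, and RSEM gave a value per gene of the GENCODE M21 annotation. The authors then dropped genes of low counts and applied quantile normalization. The deposited values are log2 CPM after that normalization by the authors. They include values below 0, and on the linear scale each library summed to 999633 or 999634 CPM. Counts were not used here, so depth is unknown and voom weights were not computed.

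The model was limma 3.58.1 (R 4.3.3), with lmFit and a trended eBayes on the 12153 genes together, no covariate beside genotype, and Benjamini-Hochberg adjustment over all genes. Ratios, exact permutation tests and correlations were computed with scipy 1.17.1 in Python 3.11.15. Alternatives were vooma weights, sample quality weights, eBayes that was robust or had no trend, a minimum mean of 1, a pseudocount of 1 CPM, cyclic loess, a replicate block, a threshold of 0.10 and leaving out each library. A melanoma marker covariate and leaving out the 2 libraries lowest in melanoma markers were added after the data were seen. Genes were named by list: the 10 genes, 20 further zinc genes, stress, glucocorticoid and cell type marker genes, and the 3 genes most correlated with *Mt1* and *Mt2*. The members and lists were chosen with earlier results of these data known, so no p was computed for a difference of a list between genotypes. The correlations of *Mt1* and *Mt2* with marker means do use means over lists, and their p-values carry that limit.

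Positions, exon lengths and coding sequences came from GENCODE M21, whose build is that of the files, and start site windows from RefSeq. All 10 genes matched the annotation by identifier. Protein sequences were not used here.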

Additional observations from a re-analysis of the deposited data

How the results depend on the processing

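Of the 10 genes, limma called 0 under all 17 alternatives, and of the 12 further zinc genes it called 0 under the same 17. Over all genes the count of 7 became 0 without a mean-variance trend, 19 with sample quality weights and 19 with the melanoma covariate. In the weighted fit control 3 had a weight of 7.47 and the other libraries 0.52 to 0.86. Leaving out 1 library gave 0 to 8 calls over all genes and 0 to 4 of the 10 genes without overlap. The count over all genes was 0 without control 3 and without Nr3c1-Foxp3Cre 2, and 1 without Nr3c1-Foxp3Cre 1 and without Nr3c1-Foxp3Cre 3; the cause was not tested.

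Deviations from the group mean correlated at -0.12, -0.33 and -0.02 for same-numbered libraries, and at -0.27 to 0.36 for libraries of other numbers. These values cannot show whether same-numbered libraries were handled together, and no pairing was assumed. With a replicate block, 0 genes were called over all genes, 275 had an unadjusted p under 0.05, and 0 of the 10 were called.

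No fold change of the 10 genes was called, and 17 of the recomputed values turned sign while 143 did not. With sample quality weights these were *Mt1* (0.049) and *Slc30a7* (0.045), and in the wider list *Slc39a4* (0.034), *Slc39a13* (0.097) and *Slc39a14* (0.133). Without control 2 and Nr3c1-Foxp3Cre 3 these were *Mt1* (0.047), *Mtf1* (0.023), *Slc39a1* (-0.034), *Slc30a4* (-0.054), *Slc30a6* (-0.022), *Slc39a13* (0.112) and *Slc39a14* (0.086). Over all fits without 1 or 2 libraries, ranges crossed 0 for *Mt1* (-0.257 to 0.077), *Mt2* (-0.262 to 0.044), *Mtf1* (-0.22 to 0.023), *Slc30a7* (-0.155 to 0.0796), *Slc39a1* (-0.187 to 0.201), *Slc39a10* (-0.051 to 0.18), *Slc30a4* (-0.359 to 0.442), *Slc30a6* (-0.052 to 0.098), *Slc39a11* (-0.012 to 0.128), *Slc39a13* (-0.066 to 0.112) and *Slc39a14* (-0.327 to 0.086). A minimum mean of 1 removed *Mt3*.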

Other observations

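Genes that share inducers with the metallothioneins were read in the same libraries. Of 9 metal and oxidative stress genes, 8 were tested and limma called 0, against 0.0576% of all genes, with 4 log2 fold changes above 0 and 4 below 0 and a median of -0.02. *Hmox1*, which encodes heme oxygenase 1, was at 5.52, 5.66 and 4.71 log2 CPM in control and at 4.94, 5.35 and 4.62 in Nr3c1-Foxp3Cre libraries, with a log2 fold change of -0.33 (SE 0.27). The ferritin gene *Ftl1* was at 12.0, 11.1 and 11.5 in control and at 11.4, 12.0 and 11.3 in Nr3c1-Foxp3Cre libraries. It was highest in control 1 and Nr3c1-Foxp3Cre 2, as *Mt1* and *Mt2* were. The other ferritin gene, *Fth1*, was highest in control 2, at 10.43, 10.55 and 10.33 in control and at 10.45, 10.44 and 10.25 in Nr3c1-Foxp3Cre libraries. *Ftl1* was picked out after its values were seen.

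All 8 heat shock and dissociation genes were tested and limma called 0, against the same 0.0576% of all genes, with a median log2 fold change of 0.07. *Hspa1a*, an inducible heat shock gene, was at 8.76 in control 2 and between 7.34 and 8.05 in the other 5 libraries. Of 8 genes known to respond to glucocorticoids, limma called 1, *Tsc22d3*, and 3, *Nr3c1*, *Tsc22d3* and *Dusp1*, had groups that did not overlap. Over all genes 0.0576% were called and 7.41% had groups that did not overlap. *Dusp1*, a phosphatase of MAP kinases, was at 11.1, 11.5 and 11.2 in control and at 10.6, 10.8 and 10.7 in Nr3c1-Foxp3Cre libraries, with a log2 fold change of -0.56 (SE 0.13, adjusted p = 0.652 by limma). *Fkbp5*, another target of the receptor in many cells, had a log2 fold change of -0.16 (SE 0.13, adjusted p = 1.0 by limma). Of the 8 genes, 6 had a log2 fold change below 0 and 2 above 0, *Zfp36* (0.34, SE 0.19) and *Klf9* (0.17, SE 0.36). The glucocorticoid list includes the deleted gene, so its count is not independent of the genotype.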
